A study of Rattus norvegicus with 6 samples.

Results

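The genes described here are regulators of the switch between epithelial and mesenchymal cell states. They were chosen by name: 10 genes, of which 9 had a probe set that the platform annotation ties to exactly 1 symbol, among 18166 such genes on the arrays. Each of the 9 had 1 such probe set, and Snai2 was not analysed here. The 9 fall into 2 roles set from their known functions, with 5 mesenchymal regulators (Snai1, Twist1, Twist2, Zeb1 and Zeb2) and 4 epithelial regulators (Esrp1, Esrp2, Ovol2 and Grhl2). Total RNA came from the epididymis of Sprague-Dawley rats aged 48 days, and a magnetic method had divided the cells into a basal and a non-basal fraction. Each fraction was measured on 3 Affymetrix RaGene 2.0 ST arrays. The labels name 3 rats without tying an array to a rat, so p-values describe array-to-array spread that could be purely technical. The molecule used to pull out basal cells is not stated in them. The comparison asked which of these regulators differ between basal cells, the small epithelial cells on the basement membrane of the duct, and the other cells of the epididymis.

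Epithelial cells are held together by E-cadherin junctions, and the zinc finger proteins SNAI1, ZEB1 and ZEB2 and the helix-loop-helix proteins TWIST1 and TWIST2 are known for repressing such junction genes or for driving mesenchymal genes in development, wound repair and tumours. In healthy tissue the same 5 genes are also active in fibroblasts, vessel cells and some leukocytes. The splicing factors ESRP1 and ESRP2 and the transcription factors OVOL2 and GRHL2 keep up the epithelial state, and GRHL2, OVOL2 and the microRNAs of the miR-200 family are known to hold ZEB1 down.

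Of the mesenchymal regulators, 4 were lower in the basal fraction, by 5.82-fold for Twist2, 5.72-fold for Zeb2, 2.41-fold for Snai1 and 2.12-fold for Zeb1. Among the epithelial regulators, Esrp2 and Grhl2 were higher by 1.56-fold and 1.54-fold. Twist1, Esrp1 and Ovol2 did not pass the test. In all, 4 of the 9 genes were lower and 2 were higher at a limma adjusted p under 0.05, against a background over all 18166 genes of 7.14% lower and 7.71% higher, together 14.9%. The median log2 difference (basal minus non-basal) was -1.27 over the 5 mesenchymal regulators and 0.56 over the 4 epithelial ones, beside 0.00343 over all genes tested.

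Values are on the log2 scale of the deposited RMA levels. Non-basal replicate 1 stood apart from the other non-basal arrays in these genes: it was the lowest non-basal array for 5 of 5 mesenchymal regulators and the highest for 4 of 4 epithelial regulators. Without it 5 genes were lower and 3 higher, against 8.85% and 7.51% of all genes. The counts were the same without it and basal replicate 3 together, an alternative added after the data were seen. Over all genes that alternative gave 11.69% lower and 13.76% higher. Basal markers were as labelled: 12 of 12 basal epithelial markers, among them Tp63, Krt14 and Itga6, were higher in the basal fraction. Markers of other epithelial cells separated less. Of 9 clear cell markers 0 were called, and 0 to 1 were lower with 1 array left out. Their summed linear RMA level was 5049 to 7351 in the basal arrays and 5919 to 8945 in the non-basal arrays. Of 11 markers of principal cells, the secretory epithelial cells of the duct, 1 was lower and 10 were not called, and their summed linear RMA level was 34443 to 50853 in the basal arrays and 48774 to 56820 in the non-basal arrays. The count lower was 6 when basal replicate 3 was left out, 7 when non-basal 1 was left out as well, and 0 when basal 1, basal 2, non-basal 2 or non-basal 3 was. With only non-basal 1 left out, Crisp1 was lower (limma adjusted p = 0.0408) and Defb1 went the other way, being higher (limma adjusted p = 0.0328). In these bulk fractions, fewer cells of a type and less RNA per cell cannot be told apart.

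**Figure D1:**
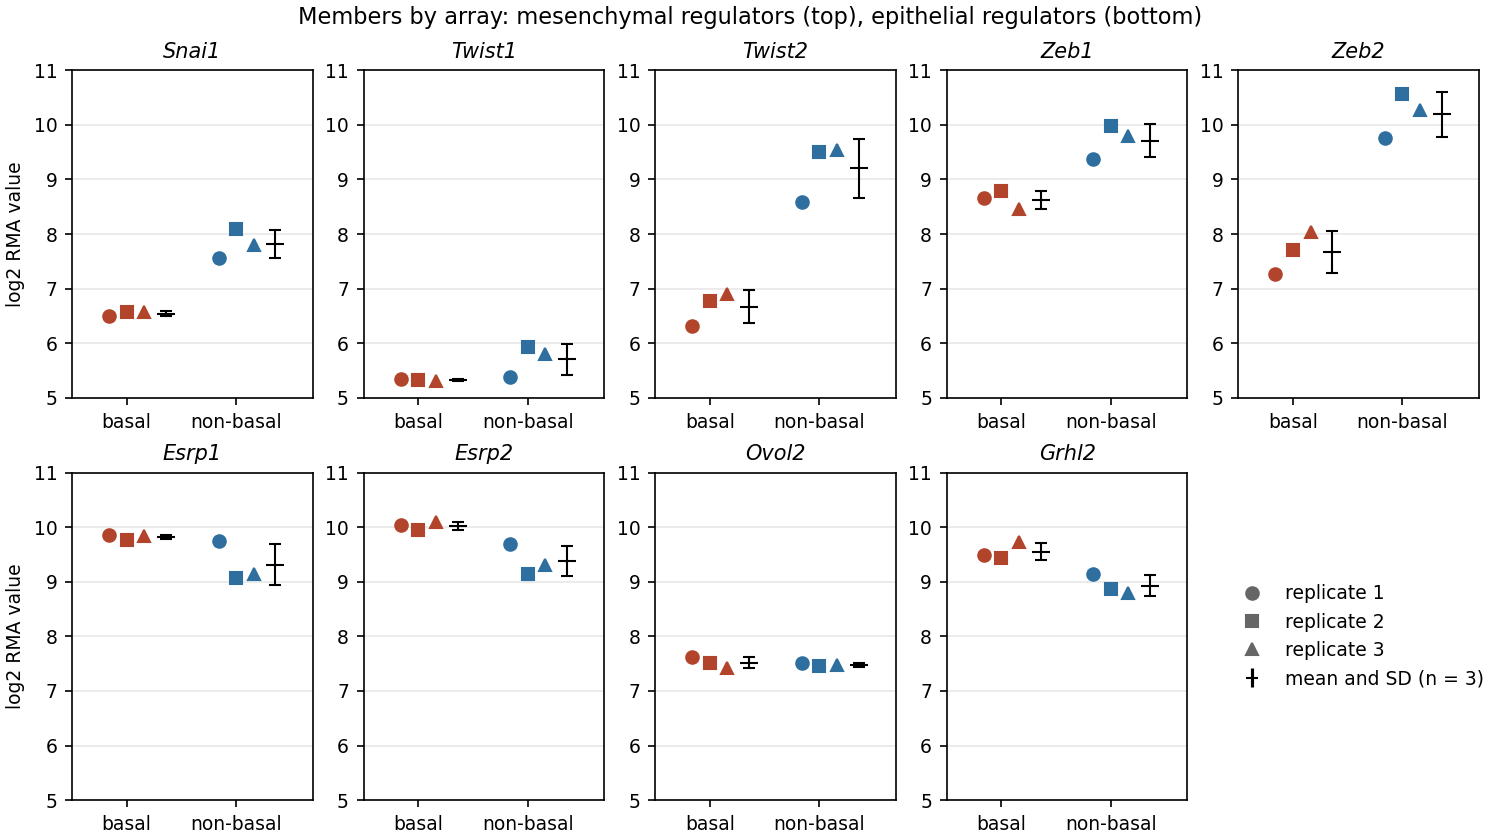
Log2 RMA value of each of the 9 genes on each array (points, replicate 1 circle, replicate 2 square, replicate 3 triangle), basal on the left and non-basal on the right of each panel, with mean and SD (n = 3) in black. All 3 basal values of the 5 mesenchymal regulators lie below the non-basal values, those of Esrp1, Esrp2 and Grhl2 lie above, and those of Ovol2 overlap.

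Zeb2, a zinc finger and homeodomain repressor of E-cadherin, had log2 values of 7.27, 7.72 and 8.04 in the basal arrays (replicates 1 to 3), against 9.75, 10.56 and 10.26 in the non-basal arrays. The fractions did not overlap, and non-basal replicate 1 was the lowest of its fraction. The difference was -2.52 ± 0.271 (SE; limma adjusted p = 0.00379), the 119th lowest of the 18166 genes. Zeb1, its paralog and the best known target of miR-200, had values of 8.65, 8.78 and 8.45 in the basal arrays and 9.38, 9.97 and 9.79 in the non-basal arrays. Its mean was 8.63 ± 0.165 in basal arrays against 9.71 ± 0.305 in non-basal arrays (SD, n = 3 each), and the arrays did not overlap. The difference was -1.08 ± 0.172 (SE; limma adjusted p = 0.0116), past the threshold in 4 of 6 fits with 1 array left out, the exceptions being basal replicate 1 (adjusted p = 0.0565) and non-basal replicate 3 (adjusted p = 0.0669).

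Twist2, a helix-loop-helix factor known in mouse for roles in dermal and other mesenchymal cells, had values of 6.32, 6.78 and 6.90 in the basal arrays and 8.59, 9.50 and 9.53 in the non-basal arrays. The lowest non-basal array was again replicate 1, yet it stood clear of every basal array. The difference was -2.54 ± 0.295 (SE; limma adjusted p = 0.00457), the 116th lowest of all genes tested. Twist1, the paralog known for its part in mesoderm and skull development, was measured at 5.34, 5.32 and 5.30 in the basal arrays and 5.39, 5.94 and 5.80 in the non-basal arrays. The 3 basal values were almost identical, and non-basal replicate 1 lay next to them. All of these values lay below the array medians of 6.63 to 6.7, as did that of Twist2 in basal replicate 1. Whether so dim a probe set shows its full difference was not tested. The Twist1 difference of -0.39 had a 95% interval of -0.74 to -0.03 and a limma adjusted p of 0.139, which fell to 0.0103 without non-basal replicate 1.

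Snai1, the zinc finger repressor that acts on E-cadherin through E-boxes, had values of 6.49, 6.57 and 6.57 in the basal arrays and 7.56, 8.09 and 7.80 in the non-basal arrays. Basal replicates 2 and 3 carried the same deposited value, as they did for 979 of the 18166 genes. All 3 basal values lay below the array medians of 6.63 to 6.7. Whether the full difference shows at such a level was not tested. The fractions were separated, with a difference of -1.27 ± 0.136 (SE; limma adjusted p = 0.00376). The calls of Snai1, Twist2 and Zeb2 held in 6 of 6 fits with 1 array left out, with adjusted p up to 0.0314, 0.0342 and 0.033.

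**Figure D2:**
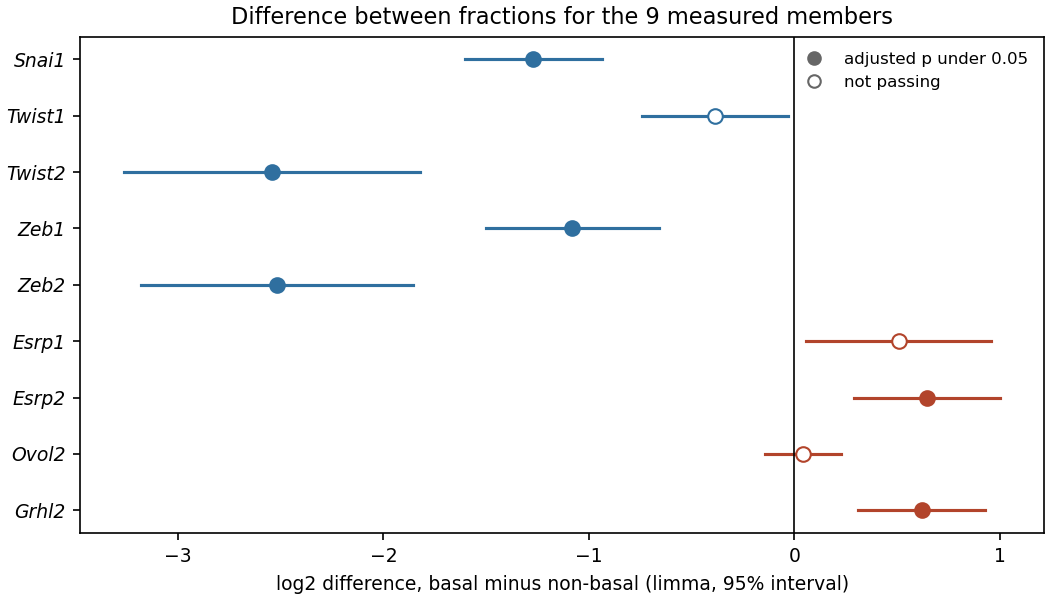
Log2 difference, basal minus non-basal, of the 9 genes (points) with 95% limma intervals (lines), filled where the adjusted p is under 0.05 and open where it is not. Twist2 (-2.54) and Zeb2 (-2.52) lie farthest from 0, Snai1 (-1.27) and Zeb1 (-1.08) less far, and the epithelial regulators between 0.04 and 0.64.

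The epithelial regulators had differences of 0.04 to 0.64, smaller in size than those of the 4 called mesenchymal regulators. Grhl2, a grainyhead transcription factor that activates junction genes, was measured at 9.49, 9.43 and 9.73 in the basal arrays and 9.14, 8.86 and 8.79 in the non-basal arrays. All basal values exceeded all non-basal values, with a difference of 0.62 ± 0.126 (SE; limma adjusted p = 0.026). Esrp2, an epithelial splicing factor, had values of 10.03, 9.95 and 10.10 in the basal arrays and 9.69, 9.15 and 9.31 in the non-basal arrays. The fractions did not overlap, and the difference was 0.64 ± 0.146 (SE; limma adjusted p = 0.0359). Both calls were fragile: Grhl2 was called in 2 of 6 fits with 1 array left out (those leaving out basal 3 or non-basal 1) and Esrp2 in 1 of 6 (leaving out non-basal 1), where adjusted p otherwise reached 0.103 and 0.137.

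Esrp1, the paralog with largely shared splicing targets, had values of 9.85, 9.77 and 9.83 in the basal arrays and 9.74, 9.06 and 9.14 in the non-basal arrays. Non-basal replicate 1 lay just under the lowest basal array, whereas the other two non-basal arrays were clearly lower. The difference of 0.51 had a 95% interval of 0.06 to 0.96 and a limma adjusted p of 0.13, which fell to 0.00488 without non-basal replicate 1. Ovol2, a zinc finger repressor of Zeb1 and other mesenchymal genes, was measured at 7.63, 7.52 and 7.41 in the basal arrays and 7.52, 7.45 and 7.47 in the non-basal arrays. The fractions overlapped, and the difference of 0.04 (limma adjusted p = 0.758) had a 95% interval of -0.15 to 0.23.

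Separation of the fractions was seen in 8 of the 9 genes, 5 lower and 3 higher, against a background over all genes of 15.3% lower and 17.6% higher, together 32.9%. Paralogs of 3 families were compared by the difference of their log2 values on each array. The Twist2 minus Twist1 value differed between the fractions by -2.15, the Zeb2 minus Zeb1 value by -1.44 and the Esrp2 minus Esrp1 value by 0.14. Each had an exact two-sided permutation p of 0.1 (0.1 after Benjamini-Hochberg adjustment over the 3 pairs), the smallest that 3 arrays against 3 allow. The Esrp2 minus Esrp1 value was 0.08 without non-basal replicate 1. Twist1 lay below the array medians on every array and Twist2 on basal replicate 1, as above, which limits what this pair can show. The basal and non-basal values of each pair did not overlap, though for Esrp2 minus Esrp1 the highest non-basal and the lowest basal value both rounded to 0.18.

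**Figure D3:**
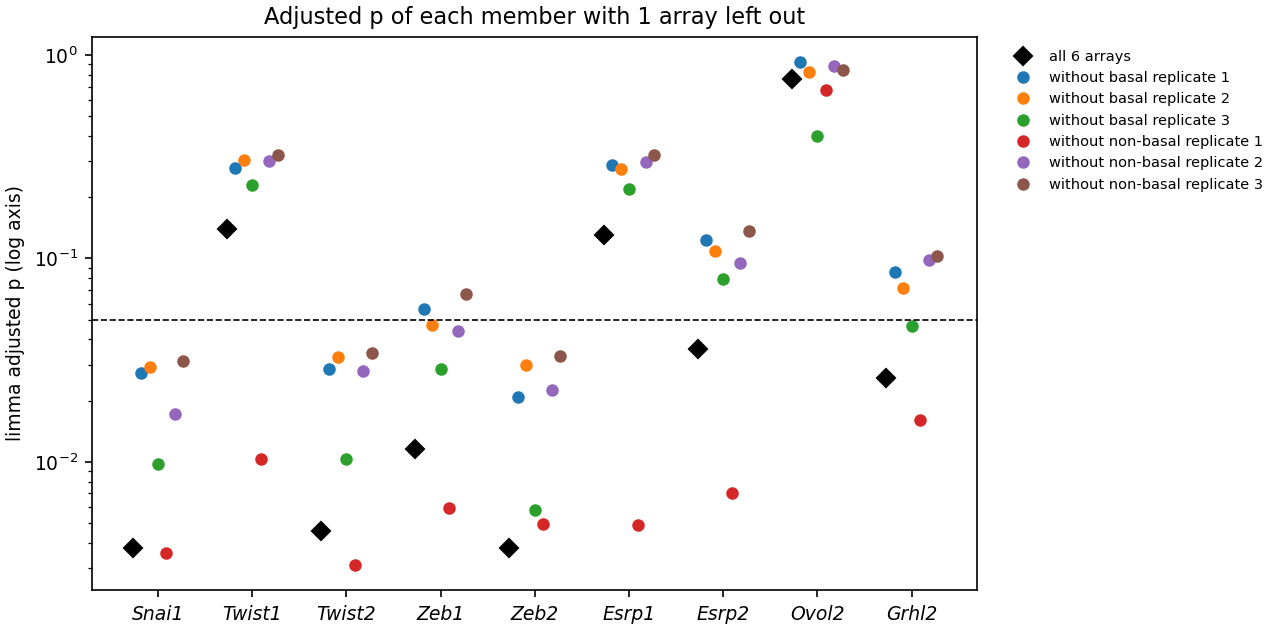
Limma adjusted p (log axis) of each gene with all 6 arrays (black diamonds) and with each array left out (coloured points), with the threshold of 0.05 dashed. Snai1, Twist2 and Zeb2 stay under the line throughout, and without non-basal replicate 1 (red) every gene except Ovol2 is under it.

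The proximal promoters of Snai1, Zeb1 and Zeb2, which moved together, and that of Epcam, an epithelial surface gene that moved the other way, are shown because SNAI and ZEB proteins bind the E-box CAGGTG, which reads CACCTG on the opposite strand. The sequences are the 250 bases before each gene's start in RefSeq (GRCr8 build), 5′ to 3′ on the gene's strand, and E-boxes of this form on either strand are in capitals.
Snai1 promoter, chr3:176667226-176667475, plus strand: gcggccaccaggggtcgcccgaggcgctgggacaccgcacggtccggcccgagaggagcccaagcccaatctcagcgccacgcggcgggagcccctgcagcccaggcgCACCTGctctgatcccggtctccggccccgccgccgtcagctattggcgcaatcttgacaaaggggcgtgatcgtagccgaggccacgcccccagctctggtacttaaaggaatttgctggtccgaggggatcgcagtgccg
Zeb1 promoter, chr17:56810654-56810903, minus strand: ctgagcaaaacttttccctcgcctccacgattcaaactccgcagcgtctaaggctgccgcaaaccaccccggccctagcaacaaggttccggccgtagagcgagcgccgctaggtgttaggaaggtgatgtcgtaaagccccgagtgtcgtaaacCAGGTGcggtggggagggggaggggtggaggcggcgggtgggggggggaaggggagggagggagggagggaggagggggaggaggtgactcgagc
Zeb2 promoter, chr3:49754324-49754573, minus strand: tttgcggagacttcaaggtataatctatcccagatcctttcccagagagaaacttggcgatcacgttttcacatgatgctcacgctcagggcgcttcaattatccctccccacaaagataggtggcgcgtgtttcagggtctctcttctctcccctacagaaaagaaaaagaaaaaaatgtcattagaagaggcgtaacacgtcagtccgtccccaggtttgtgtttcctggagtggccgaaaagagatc
Epcam promoter, chr6:12649679-12649928, minus strand: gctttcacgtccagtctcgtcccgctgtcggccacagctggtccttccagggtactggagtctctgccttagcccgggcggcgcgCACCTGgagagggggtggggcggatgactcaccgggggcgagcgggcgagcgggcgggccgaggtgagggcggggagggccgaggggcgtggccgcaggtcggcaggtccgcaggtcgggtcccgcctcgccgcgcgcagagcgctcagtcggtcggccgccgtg
Snai1, Zeb1 and Epcam each held 1 match, beginning at positions -142, -95 and -165 relative to the gene's start, and the windows of Zeb2, Twist1 and Twist2 held none. Such a match was found in 15.9% of the promoters of 14564 genes tested on the arrays. Promoters of the epithelial regulators were not analysed here. A match is a string of letters and not a measured binding site.

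The 27 measured epithelial genes that are known to be repressed by SNAI or ZEB proteins or activated by GRHL2 were counted next. In the basal fraction 12 were higher, as Grhl2 and Esrp2 were, and 0 lower, 15 had no call, and the list's median log2 difference was 0.45. The desmosomal plaque gene Pkp3 had a mean of 9.44 ± 0.113 in basal arrays against 7.83 ± 0.0466 in non-basal arrays (SD, n = 3 each), a difference of 1.61 ± 0.0791 (SE; limma adjusted p = 0.00111). The cytolinker gene Ppl, the claudin gene Cldn4 and Epcam were higher by 1.11, 1.08 and 1.27, and all 4 calls held in 6 of 6 fits with 1 array left out. Cdh1, which encodes E-cadherin and was named for that role after its values were seen, had values of 12.80, 12.78 and 12.58 in the basal arrays and 12.02, 11.64 and 11.83 in the non-basal arrays. Its difference was 0.89 ± 0.117 (SE; limma adjusted p = 0.00639). The number of genes higher depended on single arrays, at 23 when non-basal replicate 1 was left out, 7 when non-basal replicate 2 was, and 6 for each of basal 1, basal 2 and non-basal 3. Among the 18 of these genes with a promoter in the RefSeq table, 16 (88.9%) held the E-box, beside the 15.9% above. In the other lists the share ran from 0%, as for 19 corepressors and chromatin partners, to 83.3%. The latter was for 6 epithelial markers of all types, a list that shares genes with this one. Principal cell markers had 3 of 4. The target list was drawn up from known targets, so its share is a description of the list.

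Mesenchymal effector genes, which encode matrix, adhesion and contractile proteins, had 19 of 23 lower, 0 higher and 4 without a call (median -2.08). The fibronectin gene Fn1 had a mean of 8.57 ± 0.129 in basal arrays against 10.93 ± 0.24 in non-basal arrays (SD, n = 3 each), a difference of -2.36 ± 0.139 (SE; limma adjusted p = 0.00176). The fibronectin receptor subunit gene Itga5 was lower at -1.83, the actin-binding gene Tagln at -1.58 and the caldesmon gene Cald1 at -0.77. The 4 that did not pass, singled out after their values were seen, were S100a4, Ncam1, Axl and Mmp14. Axl, a receptor tyrosine kinase, had a difference of 0.53 (limma adjusted p = 0.204) and Mmp14, a membrane-bound matrix metalloproteinase, one of 0.21 (adjusted p = 0.431). The number lower was 12 when basal replicate 2 was left out and 11 when either non-basal 2 or non-basal 3 was.

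Markers of other cell types moved with Snai1, Twist2, Zeb1 and Zeb2. All 12 fibroblast markers were lower, with a summed linear RMA level of 2384 to 9946 in the basal arrays and 41374 to 78180 in the non-basal arrays. Smooth muscle and pericyte genes behaved alike, 9 of 10 being lower, with summed levels of 3549 to 6175 in the basal arrays and 19479 to 20720 in the non-basal arrays. Of 9 endothelial markers 8 were lower (1121 to 1524 in basal, 3799 to 4075 in non-basal arrays), and of 13 leukocyte markers 8 were lower (2563 to 3322 in basal, 5006 to 10508 in non-basal arrays). Leaving out basal 2, non-basal 2 or non-basal 3 left 5 fibroblast markers lower, and the leukocyte count was 12 without non-basal 1, 4 without basal 2 or basal 3 and 3 without any one of the other arrays. The dimmest of each list were Lum, Lmod1, Cldn5 and Cd3g, averaging 7.32, 7.69, 7.04 and 4.83 over the 6 arrays. The array medians were 6.63 to 6.7. Lum lay below them in the basal arrays (4.63, 4.42 and 5.78), and Cd3g in all 6 arrays (4.45 to 5.51). Whether such dim probe sets show the full difference was not tested. Tagln is in both the smooth muscle and the effector list. Col1a1, Col1a2 and Col3a1 are in both the fibroblast and the effector list. The part of these markers in the lower levels of the 4 regulators was not tested. Esrp2 and Grhl2 were higher together with 5 of 8 markers shared by all epithelial cell types, Epcam and Cdh1 among them, and the 8 summed to 19283 to 21741 in the basal and 10257 to 15106 in the non-basal arrays. That count was 8 without non-basal 1, 3 without basal 3 and 2 without any one of the other arrays. All of these 8 markers except Elf3 are also in the list of genes repressed by SNAI or ZEB proteins or activated by GRHL2. Their part in the higher Esrp2 and Grhl2 was not tested either.

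By array, the mean deviation of the 5 mesenchymal regulators from each gene's own mean over the 6 arrays was -0.93, -0.71 and -0.69 in the basal arrays against 0.39, 1.06 and 0.89 in the non-basal arrays (replicates 1 to 3). That of the 4 epithelial regulators was 0.25, 0.16 and 0.27 in the basal and 0.02, -0.37 and -0.33 in the non-basal arrays. Non-basal replicate 1 was thus the non-basal array nearest to the basal ones in both groups of genes. It was also the lowest non-basal array for fibroblast markers (1.25, against 2.30 and 2.13), smooth muscle and pericyte markers (0.90, against 1.07 and 1.01) and leukocyte markers (0.15, against 1.19 and 1.04), but not for endothelial markers (0.79, against 0.65 and 0.77). Its basal epithelial markers were the lowest of all arrays, at -1.81, and its clear cell markers the highest, at 0.47. Of the non-basal arrays it was the highest for epithelial markers of all types (0.02, against -0.62 and -0.54). The same held for principal cell markers (0.31, against 0.12 and 0.14). Basal replicate 3 had the highest fibroblast value of the basal arrays (-0.88, against -2.66 and -2.14). It was also the highest basal array for smooth muscle and pericyte (-0.55), endothelial (-0.51), principal cell (0.33) and clear cell markers (0.10). For leukocyte markers it was not (-0.76, against -0.97 and -0.66). Its basal epithelial markers were the lowest of the basal arrays (1.05, against 1.39 and 1.39). Among the 5 mesenchymal regulators basal replicate 3 was the highest basal array for Twist2 and Zeb2 and the lowest for Twist1 and Zeb1. For Snai1 it equalled basal replicate 2.

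**Figure D4:**
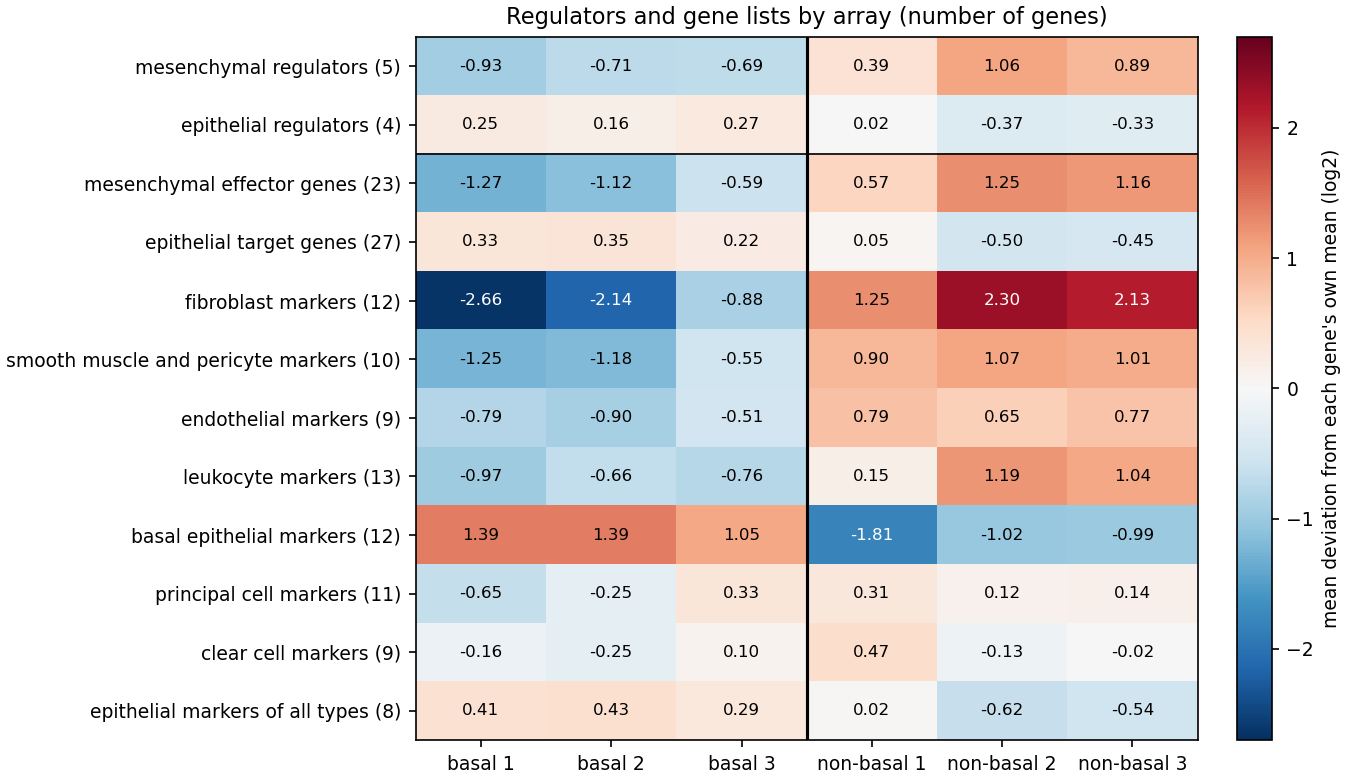
Mean deviation from each gene's own mean over the 6 arrays, in log2 units, for the 2 groups of regulators (top) and the gene and marker lists (below), with basal arrays left of the line and non-basal arrays right of it. Non-basal replicate 1 shows 0.39 for the mesenchymal regulators, against 1.06 and 0.89 in the other non-basal arrays.

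Other epithelial transcription factors ranged from -0.54 for Klf4, which was not called, to 3.10 for Tp63. The 14 measured gave 7 higher, 0 lower and 7 without a call (median 0.62). Tp63, which specifies basal epithelial cells, was higher by 3.10 ± 0.266 (SE; limma adjusted p = 0.00247). Klf5, Grhl3 and Tfap2a were higher by 1.72, 1.82 and 1.11, and their calls and that of Tp63 held in 6 of 6 fits with 1 array left out. Within the families of Grhl2 and Ovol2, whose other members were singled out after their values were seen, Grhl3 stood at 8.79 ± 0.314 in basal arrays against 6.97 ± 0.237 in non-basal arrays (SD, n = 3 each). Ovol1 was higher by 1.61 ± 0.22 (SE; limma adjusted p = 0.00715), where Ovol2 had 0.04, and Grhl1 had a difference of 0.24 (adjusted p = 0.219).

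Among 16 other transcription factors known to promote mesenchymal transition, 3 were higher, 3 lower and 10 without a call (median -0.02). The mesenchymal homeobox gene Prrx1 was lower at -2.47 ± 0.376 (SE; limma adjusted p = 0.0101), and the E protein gene Tcf4 at -0.97 ± 0.16 (adjusted p = 0.0133). Other factors of this list went the other way: Sox4 was higher by 0.81 and Tbx2 by 0.45. These 4 calls held in 3, 2, 2 and 1 of 6 fits with 1 array left out, and no gene of the list was called when basal 2, non-basal 2 or non-basal 3 was left out, nor was any higher without basal 1.

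TWIST proteins pair with E proteins, and Id proteins compete for those partners. Among 9 such genes 3 were lower, 0 higher and 6 without a call. Id4 was lower at -0.75 ± 0.0923 (SE; limma adjusted p = 0.00543), Tcf4 as above, and Id3 at -0.59 (adjusted p = 0.0188), while Tcf3 had a difference of 0.16 (adjusted p = 0.192). The call of Id4 held in 6 of 6 fits with 1 array left out and that of Id3 in 3, and 1 gene of the list was lower when basal 2, non-basal 2 or non-basal 3 was left out.

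Of 19 corepressors and chromatin partners of the SNAI and ZEB proteins, 5 were higher, 0 lower and 14 without a call. Ajuba, a LIM protein that binds SNAI proteins, had a mean of 9.96 ± 0.0637 in basal arrays against 7.80 ± 0.21 in non-basal arrays (SD, n = 3 each), a difference of 2.17 ± 0.117 (SE; limma adjusted p = 0.00147). The DNA methyltransferase gene Dnmt1, the histone demethylase gene Kdm1a and the acetyltransferase gene Kat5 were higher by 0.52, 0.48 and 0.44, of which Kdm1a held in 2 and Kat5 in 1 of 6 fits with 1 array left out. Leaving out any one array other than basal 3 and non-basal 1 left 2 genes of the list higher. Ajuba was thus higher in the fraction where Snai1 was lower. Whether the same cells hold both transcripts was not tested. Of 16 regulators of SNAI and TWIST protein stability, 3 were higher, 1 lower and 12 without a call. The ubiquitin ligase gene Mdm2 was higher by 1.24, the F-box gene Fbxo11 by 0.51 and Gsk3b, whose kinase marks SNAI1 for breakdown, by 0.53, and the kinase gene Prkd1 was lower at -0.76. Of these, Mdm2 held in 6, Prkd1 in 3 and the others in 1 of 6 such fits, and 1 gene was higher without any one array other than basal 3 and non-basal 1.

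The targets of ESRP1 and ESRP2 are known at the level of exons, and the deposited values hold 1 sum per gene, which says nothing of the spliced form. Of 15 such genes 7 were higher, 0 lower and 8 without a call (median 0.24). Fgfr2, whose epithelial exon depends on ESRP proteins, had values of 11.42, 11.31 and 11.18 in the basal arrays and 10.05, 10.06 and 9.86 in the non-basal arrays. Its difference was 1.31 ± 0.0955 (SE; limma adjusted p = 0.00206). The p120-catenin gene Ctnnd1, Enah and Arhgef11 were higher by 0.83, 0.63 and 0.62, and these 4 calls held in 6 of 6 fits with 1 array left out. Again excepting basal 3 and non-basal 1, leaving out any one array left 4 genes of the list higher.

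Of 18 other splicing regulators 1 was higher, 3 lower and 14 without a call (median 0.06). Rbm24, Rbfox3 and Celf2 were lower at -0.90, -1.50 and -1.65, and Khdrbs1 was higher by 0.50. The first 2 of these calls held in 3 and the others in 1 of 6 fits with 1 array left out, and none of the list was called when basal 2 or non-basal 3 was left out.

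Of 11 genes of TGF beta signalling, a known inducer of SNAI and ZEB genes, 2 were higher, 2 lower and 7 without a call. The ligand gene Tgfb3 was lower at -1.97 ± 0.204 (SE; limma adjusted p = 0.00352) and the latent TGF beta binding protein gene Ltbp1 at -2.38 ± 0.332 (adjusted p = 0.00767). The signal transducers Smad3 and Smad2 were higher by 0.90 and 0.62. The Tgfb3 call held in 6 of 6 fits with 1 array left out, that of Ltbp1 in 5 (lost without non-basal replicate 3, adjusted p = 0.0512), and those of Smad3 and Smad2 in 1 and 2.

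**Figure D5:**
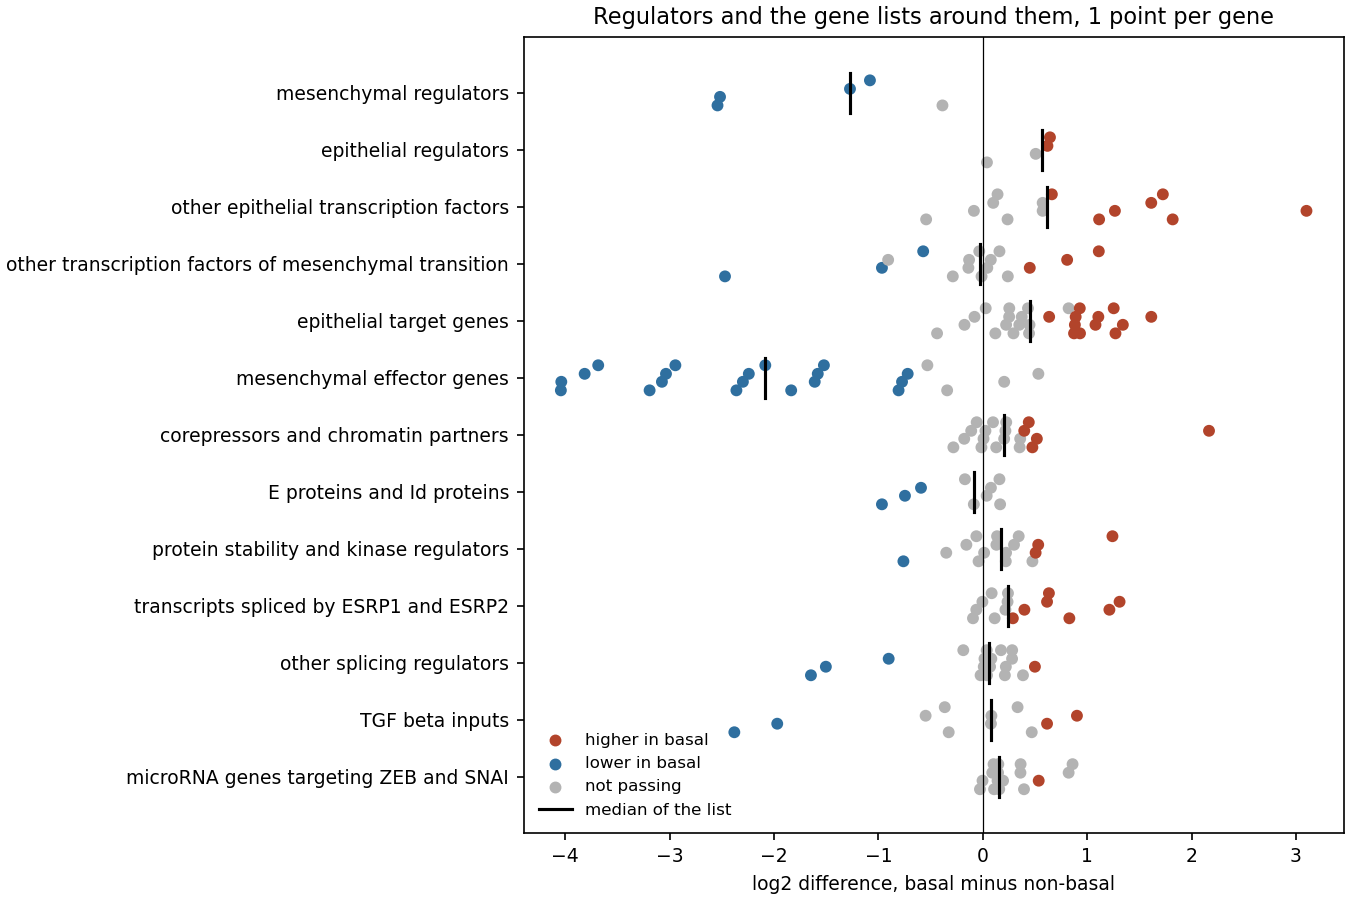
Log2 difference, basal minus non-basal, of each regulator (top 2 lines) and each gene of the 11 lists around them, red where higher, blue where lower and grey where the adjusted p was not under 0.05, with the list median as a black bar. Mesenchymal effector genes have a median of -2.08 and epithelial target genes one of 0.45.

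MicroRNA genes that act on ZEB and SNAI transcripts were measured by probe sets for their precursors, not for the mature microRNAs. The mature sequences of the 3 with the smallest p are shown with the seed (bases 2 to 8) in capitals, from RefSeq (GRCr8 build).
rno-miR-200c-3p: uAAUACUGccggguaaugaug
rno-miR-141-3p: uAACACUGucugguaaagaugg
rno-miR-205: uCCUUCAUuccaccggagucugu
The seeds of miR-200c and miR-141, AAUACUG and AACACUG, belong to the 2 seed groups of the miR-200 family, and that of miR-205, CCUUCAU, to neither. Mir200c had values of 6.50, 6.09 and 6.18 in the basal arrays and 5.85, 5.65 and 5.67 in the non-basal arrays. Its fractions did not overlap and the difference was 0.54 ± 0.126 (SE; limma adjusted p = 0.0403), and 0 of 6 fits with 1 array left out kept that call. Mir141, its neighbour on chromosome 4, had values of 5.97, 5.96 and 5.85 in the basal arrays and 5.62, 4.70 and 4.89 in the non-basal arrays (difference 0.86, limma adjusted p = 0.0638, or 0.00365 without non-basal replicate 1). Mir205, on chromosome 13, had a difference of 0.82 (adjusted p = 0.0794) and Mir30e one of 0.36 (adjusted p = 0.092). Every value of Mir200c, Mir141 and Mir205 lay below the array medians of 6.63 to 6.7. Whether probe sets so dim show their full difference was not tested. In total 1 of 16 such genes was higher, 6.25% against a background of 7.71%, and 0 were lower.

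Over the 6 arrays the 9 genes largely fell along the contrast of the fractions, so their correlations, taken over the same arrays, repeat that contrast and carry no test. Pearson correlations were 0.846 to 0.994 among the 5 mesenchymal regulators and 0.895 to 0.962 among Esrp1, Esrp2 and Grhl2. Between those 2 sets they were -0.991 to -0.853, and Ovol2 correlated with its fellow epithelial regulators at 0.177 to 0.434. The genes most like each member were Ralgdsl1 and Tfpi for Zeb2 (0.9997 and 0.9996), Fermt2 and B3gnt7 for Zeb1 (0.9997 and 0.9991), and Chsy1 and Dbn1 for Twist2 (0.9985 and 0.9982). For Snai1 they were Zfp385d and Id4 (both 0.9992), and for Twist1 Tmem37 and Angpt4 (0.9984 and 0.9982). Esrp1 was followed most closely by Ppp2r3a and Gata3 (0.9969 and 0.9957), Esrp2 by Chka and Kctd11 (0.9957 and 0.9952), Grhl2 by Fbrs and Trappc2 (0.9935 and 0.9934), and Ovol2 by Glal and H4c14 (0.9807 and 0.977).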

How the data were processed

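RNA of 3 basal and 3 non-basal samples was read on 1-colour Affymetrix arrays. Per the submitters' processing notes, the authors computed the deposited log2 values with RMA in Expression Console. Its version and probe set library are not given in the sources used here. RMA equalises array distributions, so a shift shared by most genes would be lost, and the number of arrays limits the precision. Groups came from the sample titles.

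Of 36685 probe sets, 18511 had 1 symbol in the platform annotation, 575 several and 17599 none. The brightest single-symbol probe set stood for each of 18166 genes. Moderated two-sided tests (limma 3.58.1, R 4.3.3) used all of these genes with no filter and no block, and Benjamini-Hochberg adjustment covered all of them, with calls at an adjusted p under 0.05. Paralog pairs had exact permutation tests (scipy 1.17.1). The test script was checked on artificial data.

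The members and the 19 lists (252 of 283 symbols measured) were chosen with earlier results of these data known. Named were, for each pathway list, up to 4 genes with the smallest p, and for each regulator the 2 best correlated genes, leaving out unnamed loci, microRNAs and olfactory and vomeronasal receptors. Exceptions are marked in the text. Alternatives changed the scaling (quantile, median), the minimum level (5 or 7), the variance model (trend, weights, replicate block), the handling of several probe sets, and the arrays included.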

Additional observations from a re-analysis of the deposited data

How the results depend on the processing

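The lower calls of Snai1, Twist2, Zeb1 and Zeb2 held in every alternative that kept all 6 arrays: a replicate block, quantile or median scaling, minimum levels of 5 or 7, a robust variance trend, array weights, averaged probe sets and all probe sets as the family. With 1 array left out, or both basal replicate 3 and non-basal replicate 1 (added after seeing the data), 3 to 5 of the 9 genes were lower and 0 to 3 higher. Over all genes those fits gave 2.98% to 11.69% lower and 2.8% to 13.76% higher. With the replicate block 0 were higher (Esrp2 at a limma adjusted p of 0.0522, Grhl2 at 0.0689), beside 5.41% of all genes. Whether the numbers pair the arrays is not known. Deviations of same-numbered arrays correlated at 0.0278 to 0.0383, which cannot decide it with 3 arrays per fraction. With all 36685 probe sets as the family, 1 gene was higher, beside 5.28% of all genes, and Esrp2 had an adjusted p of 0.0606. Array weights brought in Twist1 (limma adjusted p = 0.0197) and Esrp1 (0.0144). Calls over all genes rose with them too, to 12.79% lower and 15.79% higher, from 7.14% and 7.71%. Ovol2 changed sign without basal replicate 1, and over the fits with arrays left out it ranged from -0.01 to 0.11. The level of 7 removed Twist1 from the test. Of all pairs of a gene and an alternative, 122 kept direction and side of the threshold, 14 lost a call, 6 gained one and 1 changed sign.

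Over the 181 distinct genes of the 11 pathway lists, 41 were higher and 30 lower, with ranges of 19 to 67 and 13 to 38 over the fits with arrays left out. The count of 67 came without basal replicate 3 and non-basal replicate 1 (13.76% of all genes higher). That of 19 came when either basal 2 or non-basal 3 was left out (2.8% and 2.9% of all genes). Array weights gave 63 higher (15.79% of all genes). Leaving out non-basal replicate 1 gave 52 higher (7.51% of all genes). With all 6 arrays 7.71% of all genes were higher and 7.14% lower. Over the fits with arrays left out, 2.98% to 11.69% of all genes were lower. The paralog differences kept their signs in every alternative run, and quantile scaling gave Esrp2 minus Esrp1 an exact permutation p of 0.3. With 1 array left out the smallest possible exact p is 0.2, which all 3 pairs gave. The causes of these shifts were not tested.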
